A study of Sus scrofa with 20 samples.

Results

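The snowball array, an Affymetrix expression array for the pig, carries probesets named for microRNAs, and these were followed in the ileum mucosa of pigs that differed in feed efficiency. A probeset was taken as a microRNA probeset when its identifier held a mir or let name with any species prefix, or when the gene symbol of the platform annotation began with MIR and a digit. By this rule 444 of the 25092 probesets that held values were microRNA probesets, and they carried 330 microRNA names. A further 1511 rows matched the rule but were empty in the table. The identifier alone chose 176 of them, the symbol alone 92, and both chose 176. Of the identifiers, 213 carried the prefix for cattle (bta), 53 that for pig (ssc), 52 that for human (hsa) and 34 that for mouse (mmu), while the 92 chosen by symbol had the array's own identifiers (SNOWBALL).

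The 20 pigs were Large White x Landrace crosses of 5 sows and were fed ad libitum. In 10 of them residual feed intake (RFI) was low, which means that they ate less than their growth predicted, and in the other 10 it was high. The labels call low RFI pigs high in feed efficiency and high RFI pigs low. From every sow came 4 pigs, a low and a high RFI female and a low and a high RFI male, so that there were 10 litter-by-sex pairs, and each pig gave 1 array of scraped ileum mucosa. A scrape holds epithelium, blood vessels, immune cells and some muscle, so that fewer cells of a type and less RNA per cell cannot be told apart. Over all filled rows the array medians lay between 4.98 and 5.07 on the log2 scale. The correlation between any pair of arrays lay between 0.948 and 0.974, and the epithelial genes VIL1, KRT20 and FABP6 averaged 12.13, 12.40 and 13.23.

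MicroRNAs are short RNAs that are cut from hairpin precursors by DROSHA with DGCR8 in the nucleus and by DICER1 in the cytoplasm, and that then guide Argonaute proteins to matching messenger RNAs, which are repressed. Many lie within introns of protein-coding genes or in clusters that are transcribed together. In the gut wall, miR-192 and miR-215 and the miR-200 family are known from epithelium, miR-143 and miR-145 from smooth muscle and mesenchyme, miR-142, miR-150, miR-155 and miR-223 from blood cells, and miR-126 from endothelium. The array probes were hybridised with DNA made from total RNA, and the probesets are named for hairpins. Whether a signal came from the mature form, the hairpin or the longer transcript around it was not tested.

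Most microRNA probesets lay low. Array background was set at the 5% quantile of the row means of all filled probesets, a log2 value of 1.75, and 354 of the 444 microRNA probesets (79.7%) had a mean above it, against 95.3% of the other filled probesets and 95% of all. Their median level was 2.74, against 5.03 for the other probesets, and single means ranged between 1.23 and 13.43. Means under 3.33, the 25% quantile of all filled probesets, were found for 254 of them (57.2%), and means above the median of all filled probesets for 104 (23.4%). The share above background was 73.6% for pig, 80.3% for cattle, 80.8% for human, 82.4% for mouse and 80.4% for SNOWBALL identifiers. With the background set for each array on its own, between 1.57 and 1.77, 216 probesets exceeded it on all 20 arrays.

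**Figure D1:**
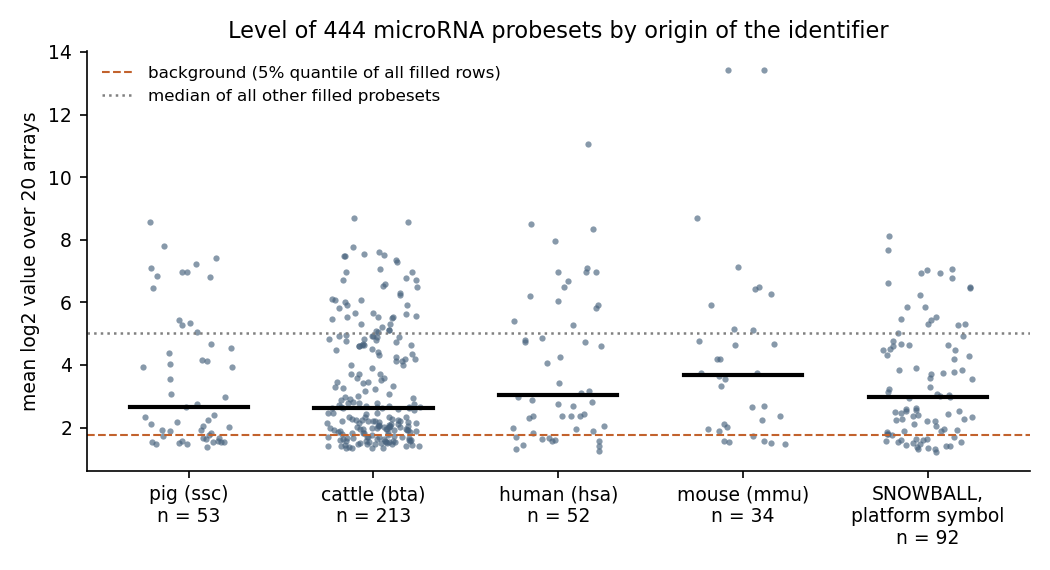
Mean log2 value over 20 arrays (y axis) of each microRNA probeset (points), by the origin of its identifier (x axis), with the median of each origin as a black bar, the background of 1.75 as a dashed line and the median of all other filled probesets, 5.03, as a dotted line. The medians of all 5 origins lie below the dotted line, and 2 mouse probesets lie at about 13.4.

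The 10 highest means were as follows. The mouse probesets mir-2146 and mir-2140 averaged 13.43 and 13.42, and the human probeset mir-492 averaged 11.06. The other 7 of the 10 highest means were between 8.12 and 8.68 and belonged to bta-mir-544b-2, mmu-mir-703, ssc-mir-181d, bta-mir-26a-1, hsa-mir-940 and both probesets of mir-574. None of these 10 had p under 0.05 for RFI in limma, against 4.03% of all probesets tested. Their log2 fold changes, low minus high RFI, ran between -0.13 and 0.24. For mir-2146 the log2 values were 13.4 ± 0.11 in low RFI and 13.5 ± 0.057 in high RFI pigs (SD, n = 10 each), with ranges that overlapped. The human hairpin of miR-492 is known to match the messenger RNA of keratin 19, an epithelial filament protein. The KRT19 probeset averaged 11.95 ± 0.37 in low RFI and 12.02 ± 0.39 in high RFI pigs, and its correlation with mir-492 over the 20 arrays was 0.896 (Pearson), a pair that was chosen after the values were seen and whose points share arrays and litters.

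Levels of different probesets depend on their probes and give no order of the microRNAs. The epithelial mir-192 had log2 values in low RFI pigs of 6.43, 7.26 and 7.71 (lowest, median and highest) and in high RFI pigs of 6.61, 7.28 and 7.96. Its partner mir-215 lay close to background, at 1.77 ± 0.55 in low RFI and 1.88 ± 0.52 in high RFI pigs (SD, n = 10 each). Of the miR-200 family, which keeps epithelial cells epithelial by repressing ZEB factors, mir-141 averaged 5.67, mir-429 3.77, mir-200b 3.47 and mir-200c 3.06. None of these had p under 0.05 in limma, and mir-141 was not tested because its SD was over the filter's limit.

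The mesenchymal mir-143 and mir-145 averaged 3.75 and 2.65, with log2 fold changes of 0.09 each. Of the blood cell microRNAs, mir-223 averaged 3.09, mir-155 2.35 and the probesets of mir-142 3.07 and 2.01, and no filled probeset was named for mir-150 or mir-194. The growth-linked mir-21 averaged 2.02. The let-7 family, which restrains proliferation and is itself held back by LIN28 proteins, had 12 probesets, of which 11 were above background and 9 were tested. Its levels ran between 1.57 and 5.41, with the let-7b probesets at the top.

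MicroRNA probesets varied more over the 20 arrays than other probesets of like level. Each pig gave 1 array, so that differences between pigs and measurement noise cannot be told apart. Among probesets above background the median SD over 20 arrays was 0.52 for microRNAs and 0.28 for the others. At levels of 2.34 to 5.32, the span between the lower and upper quartile of the microRNA probesets above background, it was 0.58 over 176 microRNA probesets and 0.31 over 10480 others. The filter of the methods removed probesets with a mean under background or with an SD over 0.825 in low RFI or 0.808 in high RFI pigs. It removed 90 microRNA probesets for their mean and 69 for their SD alone. The 69 were 19.5% of the microRNA probesets above background, against 6.95% of the others, and 285 microRNA probesets were left for testing.

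Of these 285, 26 had an unadjusted p under 0.05 between low and high RFI in limma (9.12%), the threshold of the study, against 4.03% of all 22136 probesets tested. In low RFI pigs 10 were higher (3.51%, against 1.44% of all) and 16 were lower (5.61%, against 2.59% of all). This balance changed when the arrays were centred on the median of the microRNA probesets, where 18 were higher and 10 lower. It also changed without the litter of sow 1417, where only 5 were higher and 18 lower. None passed after Benjamini-Hochberg adjustment over all probesets, and neither did any other probeset (0%). The smallest adjusted p among the microRNA probesets was 0.40 for MIR126, and that of each of the other 25 was 0.9998. Overlap of the group ranges was not counted over all probesets, so that it is not read as a trait of the microRNA probesets. In none of the 26 were the groups apart: the ranges of low and high RFI pigs overlapped for every one of the 285. Their median standard error was 0.19 log2 units, against 0.12 over all probesets tested, and the fold changes of the 26 were between 0.31 and 0.78 in size. The median log2 fold change over the 285 was -0.056 (0.0127 with the arrays centred on the microRNA median), against -0.0068 over all probesets. Of the 285, 116 were positive and 169 negative, against 10561 positive and 11575 negative over all probesets tested. Within pairs the median over the 285 ran between -0.108 and 0.0705 and was negative in 8 of 10 pairs. Pair medians over all probesets were not computed, so that this is a description only.

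**Figure D2:**
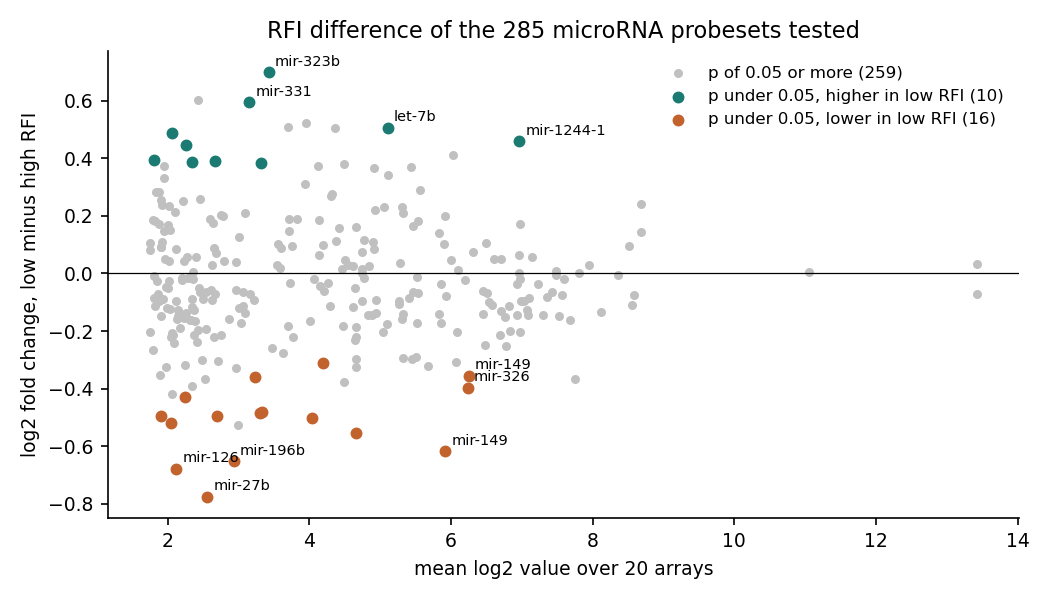
Log2 fold change, low minus high RFI (y axis), against the mean log2 value over 20 arrays (x axis) of the 285 microRNA probesets tested. Points in green (10, higher in low RFI) and orange (16, lower in low RFI) had an unadjusted limma p under 0.05, and most of them lie at low levels.

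Low level marked most of the 26. Means under 3.33 were found for 16 of them (and for 125 of the 285 tested), and means above the median of all filled probesets for 5 (94 of the 285). Without the filter, 32 of the 444 microRNA probesets (7.21%) had p under 0.05, against 3.99% of all filled probesets. All 10 pairs changed in the same direction in 1 of the 285 probesets, that of MIR126, against 0.14% of all probesets tested. In 9 of 10 pairs the direction was the same for mir-216a, mir-140, mir-323b and mir-181a-2. How many of all probesets reached 9 pairs was not counted, so that this is a description only.

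MIR126 had the smallest p of all microRNA probesets tested. Its SNOWBALL probeset had log2 values of 1.17, 1.75 and 2.43 in low RFI pigs (lowest, median and highest) and of 2.04, 2.41 and 3.33 in high RFI pigs. The low RFI values were lower in all 10 litter-by-sex pairs, although the groups overlapped between 2.04 and 2.43. The means were 1.78 ± 0.36 in low RFI and 2.46 ± 0.42 in high RFI pigs (SD, n = 10 each), and the log2 fold change was -0.68 ± 0.13 (SE, limma p 5.4e-05, adjusted p 0.40). Of all probesets tested, 31 (0.14%) had the same sign in all 10 pairs. Within pairs the difference was smallest in the males of sow 1410, at -0.0381, and largest in the males of sow 1435, at -1.14. The low RFI mean thus lay at array background, and the probeset exceeded the background of its own array in 7 of 10 low RFI and 10 of 10 high RFI pigs.

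The second probeset of the same microRNA did not show this difference. The cattle probeset bta-mir-126 had log2 values of 0.814, 1.68 and 2.11 in low RFI pigs and of 1.12, 1.54 and 2.48 in high RFI pigs, so that the groups overlapped over nearly their whole ranges. It was lower in 4 and higher in 6 pairs, and was not tested because its mean lay below background. Its correlation with the SNOWBALL probeset over the 20 arrays was 0.208. The mean of both probesets gave a log2 fold change of -0.33 (limma p 0.0179). This mean holds the SNOWBALL values, so that it is no separate support.

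**Figure D3:**
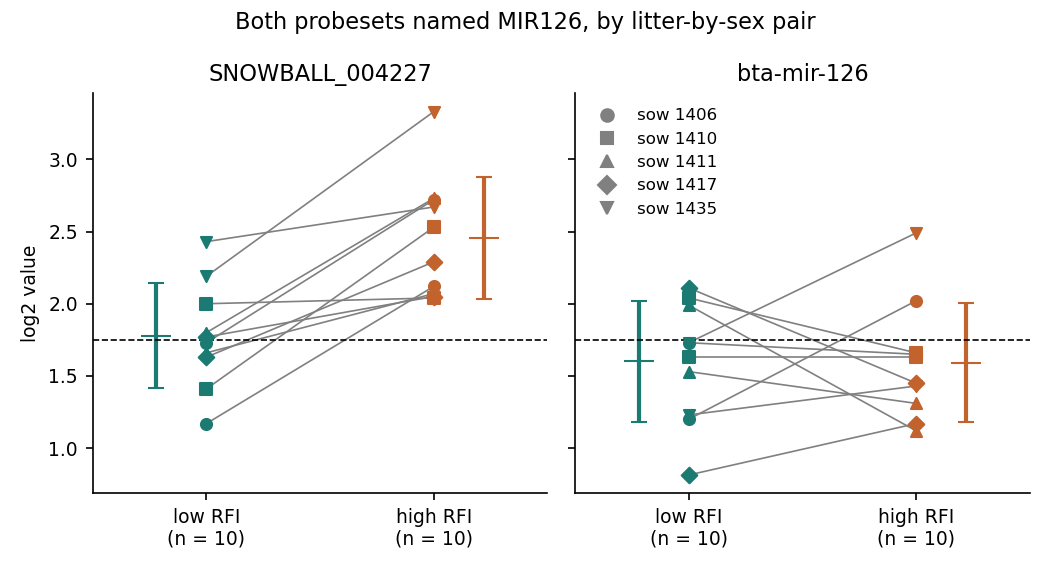
Log2 values (y axis) of both probesets named MIR126 in low RFI (left) and high RFI pigs (right), with a line for each of the 10 litter-by-sex pairs, a marker shape for each sow, mean and SD beside the points and the background of 1.75 as a dashed line. In the SNOWBALL probeset the low RFI pig is the lower one in 10 of 10 pairs, in the cattle probeset in 4 of 10.

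The litters also differed in the SNOWBALL probeset of MIR126 (limma p 0.0113, adjusted p 0.247). The pigs of sow 1435 averaged 2.66 ± 0.49 (SD, n = 4), and the other litters averaged between 1.94 and 2.06. RefSeq places MIR126 on unplaced sequence of the Sscrofa11.1 assembly, at 1108695 to 1108767. In human and mouse it lies in an intron of EGFL7, an endothelial secreted factor, for which no filled probeset was named. The endothelial markers with values were PECAM1, CDH5, VWF, ERG, ESAM and CLDN5, with levels between 4.18 and 7.23, and their summed log2 level ran between 33.7 and 37.7 in low RFI and between 33.6 and 38.4 in high RFI pigs. Of these 6, ERG was higher in low RFI pigs (log2 fold change 0.23, limma p 0.018). The other 5 had p over 0.05, with log2 fold changes between -0.28 for PECAM1 and 0.04 for VWF. With the endothelial score as a covariate the log2 fold change of MIR126 was -0.69.

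Of 14 listed targets of miR-126, 8 were tested by their brightest probeset and 1 had p under 0.05, against 4.03% of all probesets. A further probeset of CRKL, which was not its brightest, also had p under 0.05. The gene called was IRS1, an adaptor of the insulin receptor, at 1.91 ± 0.27 in low RFI and 2.16 ± 0.20 in high RFI pigs (SD, n = 10 each), a log2 fold change of -0.25 (limma p 0.0286, adjusted p 0.9998). The median over the 8 targets was -0.05, against -0.0068 over all probesets. The named probesets most like MIR126 over the 20 arrays were CSPG4 with a Pearson correlation of 0.752, TMCC2 with 0.728, SLC45A2 with 0.723, JSRP1 with 0.722 and NAIF1 with 0.718, all over the same 20 arrays, which share litters.

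Among the other probesets lower in low RFI pigs, those of mir-149 and mir-326 were well above background. The SNOWBALL probeset of mir-149, which lies within GPC1 on chromosome 15 (139474769 to 139474844), had log2 values of 5.69, 6.20 and 6.55 in low RFI pigs and of 5.58, 6.51 and 6.96 in high RFI pigs. Its log2 fold change was -0.36 ± 0.12 (SE, limma p 0.00634). The mouse probeset of mir-149 had a log2 fold change of -0.62 ± 0.27 (limma p 0.0319) and the human one -0.14 (p 0.156). All 3 probesets of mir-149 were thus on the lower side, 2 of them with p under 0.05. The enclosing gene GPC1, a heparan sulfate proteoglycan, had a log2 fold change of 0.13 (p 0.182).

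For mir-326, which lies within ARRB1 on chromosome 9 (9581944 to 9582034), the log2 values were 5.61, 6.11 and 6.63 in low RFI pigs and 5.89, 6.45 and 6.73 in high RFI pigs, a log2 fold change of -0.40 ± 0.12 (SE, limma p 0.00488). In 8 of 10 pairs the low RFI pig had the lower value. The enclosing gene ARRB1, an arrestin of receptor signalling, had a log2 fold change of -0.12 (p 0.457).

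Among the probesets tested, the largest decrease was that of mir-27b. Its log2 values were 1.26, 1.86 and 3.55 in low RFI pigs and 1.55, 3.19 and 3.77 in high RFI pigs. The low RFI median lay near background, both groups spread widely, and the log2 fold change was -0.78 ± 0.27 (SE, limma p 0.0107). The cattle probeset of mir-27b, left out for its SD, averaged 2.13 in low RFI and 2.20 in high RFI pigs. The mean of both gave -0.42 (p 0.0762), and without the litter of sow 1411 the SNOWBALL probeset gave -0.60 (p 0.0591). The probeset bta-mir-216a, named for a microRNA known from pancreas, had log2 values of 1.31, 1.66 and 2.16 in low RFI pigs and of 1.67, 2.25 and 2.52 in high RFI pigs. In 9 of 10 pairs the low RFI value was the lower one (limma p 0.000983). The low RFI mean of 1.67 lay below background and the probeset passed the filter through its high RFI mean of 2.16, so that its fold change is not given and its p is no independent support. Of the low RFI pigs 5 of 10 exceeded the background of their own array, against 10 of 10 high RFI pigs.

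The remaining lower probesets were mir-196b of the HOX clusters (-0.65), mir-363 of the chromosome X cluster (-0.55), both probesets of mir-493 (-0.52 and -0.36), mir-339 (-0.50), mir-140 (-0.50), mir-7-1 (-0.48), mir-15a (-0.48), mir-222 (-0.43) and the mouse probeset of mir-26a-1 (-0.31). Of these, mir-140, which in mammals lies in an intron of the ubiquitin ligase gene WWP2, was lower in 9 of 10 pairs, with means of 2.44 ± 0.41 in low RFI and 2.94 ± 0.63 in high RFI pigs (SD, n = 10 each, limma p 0.0394). The p of the others in limma lay between 0.00849 for mir-363 and 0.0491 for mir-339, which had p 0.0578 when litter-by-sex pairs were blocked.

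Among the probesets tested, the largest increase was that of hsa-mir-323b. Its log2 values were 3.09, 3.69 and 5.18 in low RFI pigs and 2.11, 3.17 and 3.82 in high RFI pigs. It was higher in 9 of 10 pairs, and the log2 fold change was 0.70 ± 0.22 (SE, limma p 0.00545). Next came bta-mir-331 (0.60), bta-let-7b (0.51), mir-381 (0.49), hsa-mir-1244-1 (0.46), mir-374b (0.45) and, both at about 0.39, mir-377 and mir-181a-2, followed by mir-423 (0.38) and mir-432. The brightest of these, mir-1244-1, had log2 values of 6.78, 7.15 and 7.77 in low RFI pigs and of 5.49, 6.94 and 7.39 in high RFI pigs, and was higher in 6 of 10 pairs only (limma p 0.0329). The values of mir-181a-2 were 1.65, 2.50 and 3.40 in low RFI pigs and 1.65, 2.09 and 2.61 in high RFI pigs, higher in 9 of 10 pairs (limma p 0.0165).

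Of the microRNAs with p under 0.05, mir-323b, mir-377, mir-381, mir-432 and mir-493 are known in human and mouse from the imprinted DLK1-DIO3 region, a large cluster that is expressed from the maternal chromosome. The probesets of the first 4 were higher in low RFI pigs and both probesets of mir-493 were lower. They are named because they were called, and the other microRNAs of the region were not counted. RefSeq placed mir-493 (121697837 to 121697919) and mir-432 (121711137 to 121711216) on chromosome 7, where the group between mir-493 and mir-136 held 6 probesets with levels between 1.53 and 3.23. For mir-432 the log2 values were 1.33, 1.95 and 2.75 in low RFI pigs and 1.14, 1.61 and 2.10 in high RFI pigs (limma p 0.0089). Its high RFI mean of 1.61 lay below background, and it passed the filter through its low RFI mean, so that this p is no independent support either.

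Of the names, 196 matched 1 RefSeq microRNA gene, and 179 probesets lay within the span of a protein-coding or long noncoding RNA gene of a placed chromosome. The strand was not in the table used, so that an enclosing gene need not be the transcript that the microRNA is cut from. Where a microRNA and its enclosing gene were both tested (56 probesets, 32 enclosing genes), both fold changes had the same sign in 23. No enclosing gene had p under 0.05 in limma, against 4.03% of all probesets tested. With this few genes, that count is not read as a trait of them. Of the clusters with at least 3 names no more than 50000 bases apart, that of mir-30c to mir-30a on chromosome 1 (51383782 to 51412933) had its 3 probesets at 5.29, 5.87 and 6.96, with a median correlation between them of 0.419. The growth-promoting cluster of mir-17 to mir-19b-1 on chromosome 11 (60734656 to 60735317) had 2 of 7 probesets above background, and those of mir-450b to mir-542 on chromosome X had 0 of 5.

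More than 1 probeset carried the same microRNA name for 102 of the 330 names (216 probesets), and these were compared as a check of the measurement. Their levels differed by a median of 0.40 log2 units, by more than 1 in 22 names, and by 4.37 for mir-26a-1 (8.56 for the cattle and 4.19 for the mouse probeset). Over the 20 arrays, the 91 pairs of same-named probesets above background had a median Pearson correlation of 0.108, against 0.0134 for pairs of different names. Pairs of probesets of 1 gene among the other genes had a median of 0.261 (9240 pairs), and of 0.146 at levels of 2.34 to 5.32 (2018 pairs). Over all 102 names, those below background included, the median correlation within a name was over 0.5 for 5 names, which were mir-130b (0.651), mir-574 (0.619), mir-99a (0.547), mir-455 (0.517) and mir-374a (0.507), and under 0 for 44.

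The RFI difference was seldom shared between probesets of a name. In 60 pairs of same-named probesets that were both tested, the fold changes had the same sign in 37, 1 of both had p under 0.05 in 8 pairs, and both in 2, those of mir-493 and mir-149. When litter-by-sex pairs were blocked, the p of the SNOWBALL probeset of mir-493 was 0.0666 and that of the mouse probeset of mir-149 was 0.053. Without the litter of sow 1411 that of mir-493 was 0.311 (log2 fold change -0.17), and without the litter of sow 1435 that of mir-149 was 0.112. Of the 3 probesets of let-7b, the mouse one was left out for its SD, and its fold change without the filter was positive. The cattle probeset of let-7b had a log2 fold change of 0.51 (limma p 0.0241) and the human one of -0.09 (p 0.736). Likewise, mir-423 gave 0.38 (p 0.0134) and -0.37 (p 0.129), mir-374b 0.45 (p 0.035) and -0.27 (p 0.136), and mir-331 0.60 (p 0.0338) and 0.02 (p 0.939). Other pairs with p under 0.05 in 1 probeset went the same way in both. These were mir-363 (-0.55 and -0.12), mir-339 (-0.50 and -0.23) and mir-26a-1 (-0.31 and -0.11), with the called probeset first.

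**Figure D4:**
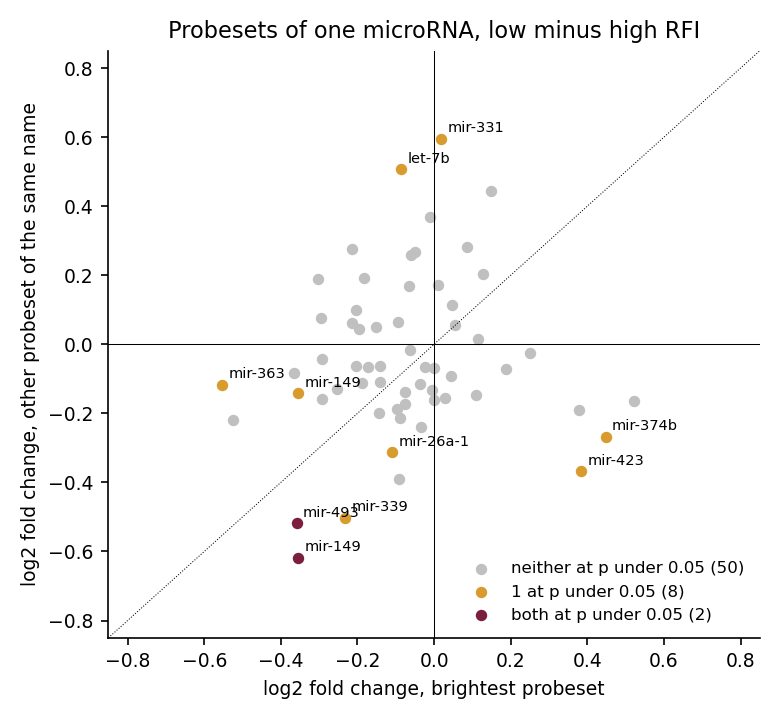
Log2 fold change, low minus high RFI, of the brightest probeset of a microRNA (x axis) and of each other probeset of the same name (y axis), for 60 pairs that were both tested; the dotted line marks equal values. In 37 pairs the signs are the same, and both probesets had an unadjusted limma p under 0.05 for mir-493 and mir-149.

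Litter was the other grouping of the pigs. Between the 5 litters, 37 of the 285 microRNA probesets had p under 0.05 in limma (12.98%), against 12.9% of all probesets, so that their share was that of the array as a whole. None passed after adjustment, against 0.0949% of all. The smallest p was that of bta-mir-544b-2 (0.000437, adjusted p 0.0966), with litter means of 7.81 ± 0.32, 8.35 ± 0.40, 8.79 ± 0.64, 9.39 ± 0.47 and 9.07 ± 0.48 (SD, n = 4 each) for the sows 1406, 1410, 1411, 1417 and 1435. For mir-940 the litters of sows 1406 and 1411 averaged 8.31 and 8.22, and the other 3 between 8.64 and 8.75. The SNOWBALL probeset of mir-142 was lowest in the litter of sow 1417, at 2.43 ± 0.49, and highest in that of sow 1411, at 3.68 ± 0.51. The values of mir-7-1 were highest in the litter of sow 1435 (3.97 ± 0.46), and those of mir-19a in the litter of sow 1406 (2.69 ± 0.65), where other litters averaged between 1.61 and 1.90. The interaction of RFI and sex had p under 0.05 in 27 of the 285 probesets (9.47%), against 6.06% of all, and the smallest adjusted p was 0.784.

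**Figure D5:**
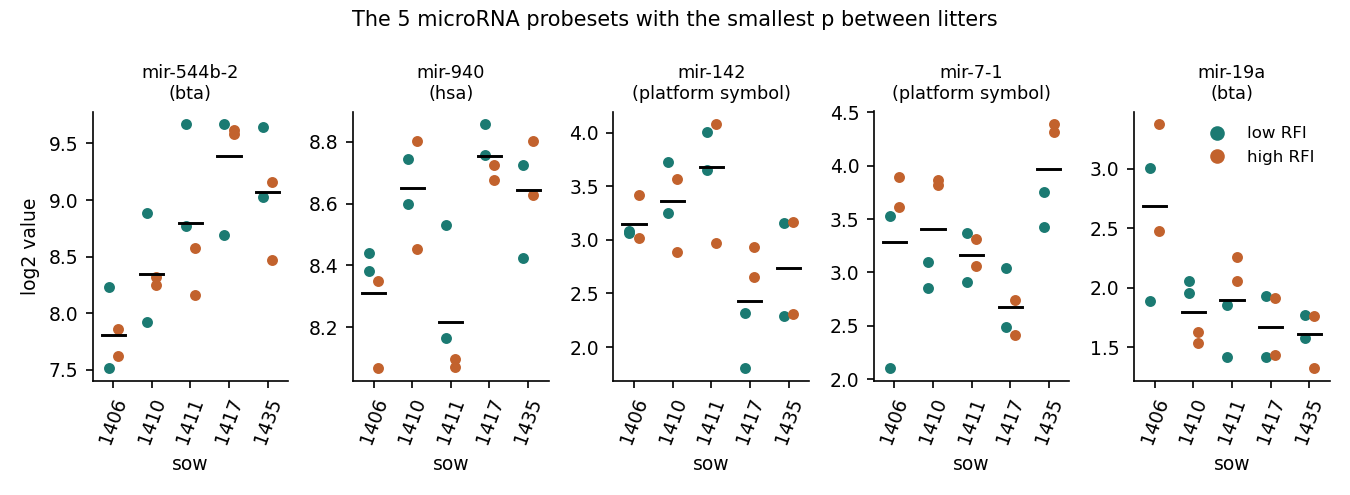
Log2 values (y axis, its own range in each panel) of the 5 microRNA probesets with the smallest limma p between litters, by sow (x axis), with low RFI pigs in green at the left and high RFI pigs in orange at the right of each sow and the litter mean as a bar. Litter means of mir-544b-2 run between 7.81 and 9.39.

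The genes that make and use microRNAs were looked at beside them. Of 48 listed genes 31 had values, and of the 29 tested none had p under 0.05 in limma, each gene being taken by its brightest probeset. Over all probesets tested the share was 4.03%, so that few such genes would be called at that share. The count is not read as a trait of these genes. Of the other probesets of these genes, 1 of AGO4 had p under 0.05. DGCR8, the partner of DROSHA, averaged 7.09 ± 0.13 in low RFI and 7.08 ± 0.13 in high RFI pigs, and AGO2, the slicing Argonaute, 7.48 ± 0.18 in low RFI and 7.48 ± 0.11 in high RFI pigs (SD, n = 10 each). Both had a log2 fold change of 0.01. The median log2 fold change over the 29 genes was 0.0098, against -0.0068 over all probesets. DROSHA, XPO5 and DICER1 had no named filled probeset.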

How the data were processed

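RNA of ileum mucosa from 20 pigs was hybridised to the snowball array. According to the methods, the authors built a custom probe layout on Sscrofa11.1 and normalised the arrays by the robust multichip average, and log2 values were deposited. The submitters' processing notes name GCOS 1.1.1. For extraction and labelling the labels give other kits (Qiazol, RNeasy, Ambion WT) than the methods (TRI reagent, NucleoSpin, WT Plus), and whether short RNAs were retained is not given in the sources used here. Of 47845 rows, 22753 were empty. Gene symbols came from the platform annotation, which is older than the layout, and positions from RefSeq (Sscrofa11.1) by microRNA name. No sequences are shown.

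With R 4.3.3 and limma 3.58.1, lmFit and eBayes were fitted to the 22136 probesets left by the filter, with RFI group and sow (14 residual and 4.42 prior degrees of freedom), and tested on simulated data. The slaughter batch of the study's model was not used, as the labels do not give it. A positive fold change means higher in low RFI. Adjusted p-values follow Benjamini-Hochberg over all probesets tested. Tables and plots were made with Python 3.11.15, pandas 2.3.3, numpy 2.4.6 and matplotlib 3.10.9. The number of arrays limits the precision.

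Pairs were taken from the sow and sex in the labels. Deviations of the pigs of a pair had a median correlation of 0.0836, with 4 of 10 pairs over 0.1. The members and lists were chosen with earlier results of these data known. Named were MIR126, every microRNA probeset with p under 0.05 for RFI, the 10 highest means, the 5 smallest litter p, set families of gut microRNAs (up to 4 single values each), main machinery genes, enclosing genes and the 5 probesets most like MIR126. Alternatives were other model terms, filters, eBayes settings, array scalings, backgrounds, the mean of same-named probesets, and leaving out each pig or litter.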

Additional observations from a re-analysis of the deposited data

Results flagged for a closer look

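Within the groups of named probesets, checks for a single pig far from the others (its gap to the nearest pig as a share of the group's range) gave 10 hits (7.52% of the groups checked), where chance gives about 1 for every 20 groups. In the high RFI female of sow 1411, 3 members of the miR-200 family were the lowest of the high RFI pigs at once: mir-141 at 3.97 (gap 0.558 of the range, next pig 5.29), MIR429 at 2.18 (gap 0.561, next pig 3.50) and mir-200c at 1.59 (gap 0.477, next pig 2.64). The fourth member, mir-200b, was 3.468 in this pig, within the high RFI range of 2.75 to 4.56. In high RFI pigs, mir-374b was high in the male of sow 1406 (3.08, gap 0.468), bta-mir-26a-1 was low in the female of sow 1417 (gap 0.618, next pig 8.48), and the mouse probeset of mir-142 was high in the male of sow 1411 (3.04, gap 0.524). In low RFI pigs, mir-19a was high in the male of sow 1406 (3.01, gap 0.598) and mir-215 in the female of sow 1435 (3.17, gap 0.645). Within litters, bta-mir-544b-2 was low in the low RFI female of sow 1417 (8.69, gap 0.905), and the SNOWBALL probeset of mir-142 was high in the high RFI male of sow 1406 (3.42, gap 0.839).

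The interaction of RFI and sex had an unadjusted limma p under 0.05 in 3 of 51 named probesets, a share like the 6.06% of all probesets, and none passed after adjustment. For mir-145 the log2 fold change was 0.38 in males and -0.20 in females, an interaction of 0.578 (p 0.00553, adjusted p 0.784). For the mouse probeset of mir-26a-1 the log2 fold change was -0.57 in males and -0.055 in females (interaction -0.514, p 0.0491, adjusted p 0.824). The third was mir-216a, with an interaction of 0.529 (p 0.0347, adjusted p 0.784). Its low RFI mean lay below background and it passed the filter through its high RFI mean. Its fold changes by sex are therefore not given, and no difference between the sexes is read from this interaction.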

How the results depend on the processing

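The SNOWBALL probeset of MIR126, or its mean with the cattle probeset in 1 alternative, had limma p under 0.05 in all 15 alternatives. The log2 fold changes lay between -0.69 and -0.33, the latter being that of the mean. They lay between -0.73 and -0.61 without any 1 pig and between -0.73 and -0.60 without any 1 litter. With the replicate block (litter-by-sex pair) the log2 fold change of MIR126 was -0.68. With this block 26 microRNA probesets had p under 0.05, 11 higher and 15 lower in low RFI. The block took mir-339 (p 0.0578), the mouse probeset of mir-149 (p 0.053) and the SNOWBALL probeset of mir-493 (p 0.0666) past 0.05 and no other of the 26. Over all alternatives the number with p under 0.05 was between 19 and 32, and 32 without the filter. With 1 probeset per microRNA name, an alternative chosen after seeing the data, it was 20 (8 higher, 12 lower). With arrays centred on the median of the microRNA probesets, 18 were higher and 10 lower, against 10 and 16, and the median log2 fold change was 0.0127. Leaving out a pig or litter gave between 18 and 34, with 5 to 16 higher (5 without the litter of sow 1417, 16 without low RFI replicate 1, the female of sow 1410), 9 to 19 lower (9 without the litter of sow 1435), and a median between -0.07189 and -0.02997. Of the 25 called microRNA probesets other than MIR126, 12 had p under 0.05 in all alternatives, and 2 of these, mir-323b and mir-216a, also without each pig and each litter; no direction turned. The low RFI mean of mir-216a and the high RFI mean of mir-432 lie below background, so that both passed the filter through 1 group, which leaving out pigs does not test. The number above background was 190 with the 25% quantile and 216 with the background of each array exceeded on all arrays. Machinery genes with p under 0.05 numbered 0 to 1 (1 without the litter of sow 1417, without high RFI replicate 3, or without low RFI replicate 4 or 7). Litter calls were between 29 and 48. Low levels limit what the array can show: 16 of the 26 had means under 3.33, the 25% quantile of all filled probesets.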

Other observations

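The platform symbol and the identifier disagreed for some microRNA probesets. Of 195 probesets chosen by identifier that also had a symbol, 7 carried that of a protein-coding gene, such as RTL1 for mir-431, mir-432 and mir-136, and 2 that of a microRNA with another number, bta-mir-1282 as MIR128-2 and ssc-mir-17 as MIR18. Outside the rule, 3 SNOWBALL probesets annotated as MIRLET7D, MIRLET7E and MIRLET7G averaged 4.64, 2.71 and 3.28, and none of the 2 tested had p under 0.05 in limma.

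Without the filter, 7 of the 159 microRNA probesets it had left out had p under 0.05 in limma, a share near the 3.99% of all filled probesets. Of these 7, 4 had been left out for their SD. Among these was mmu-let-7b, with log2 values of 5.01, 5.73 and 6.13 in low RFI pigs (lowest, median and highest) and of 1.17, 5.11 and 6.37 in high RFI pigs, the value of 1.17 being that of the high RFI female of sow 1411. The high RFI male of the same sow had 2.551, and the next high RFI pig 4.764. The cattle probeset of mir-193a, also left out for its SD, ranged between 4.11 and 6.30 in low RFI pigs. In high RFI pigs it ranged between 1.71 and 4.95. Without the filter, the log2 fold changes of the 3 probesets of mir-193a were all positive and up to 1.59 apart. The 2 that were tested had log2 fold changes of 0.05 and 0.11. The muscle marker ACTA2 was lower in low RFI pigs (log2 fold change -0.62, limma p 0.0254). The other muscle markers with values did not share this. MYH11 had a log2 fold change of -0.07 and DES of 0.14, both with limma p over 0.05. TAGLN, which was not tested, averaged 6.41 in low RFI and 6.10 in high RFI pigs.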
